A study of Sus scrofa with 12 samples.

Results

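Guidance genes encode the secreted and membrane-bound signals, and the receptors for them, that were first described in growing axons and that also steer cell migration and vessel growth. The genes described here were taken by symbol from the mRNA count table: semaphorins of classes 3 to 7, plexins, neuropilins NRP1 and NRP2, Eph receptors, ephrins, slits, ROBO receptors, netrins and UNC5 receptors. This gave 60 genes among the 13363 distinct symbols of the table, and for a symbol with several entries the entry with the most reads over all libraries stood for the gene. The rule uses names and total reads, but the set was proposed with earlier results of these data known. SEMA7A was singled out with its difference between vesicles and cells already known, so its values are given as a description without a test, and it is left out of all counts of differences. The set held 18 semaphorins, 8 plexins, 2 neuropilins, 12 Eph receptors, 4 ephrins, 3 slits, 4 ROBO genes, 4 netrin genes and 5 genes whose symbol begins with UNC5. One of the last, UNC5CL, matched by its letters only and is not a netrin receptor.

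Semaphorins act through plexins. Class 3 members are secreted and mostly bind a neuropilin that is held together with a plexin, whereas classes 4 to 7 are tied to the membrane, SEMA7A by a lipid anchor, and SEMA7A binds PLXNC1 and integrin beta-1. Ephrins are membrane-bound ligands of Eph receptor tyrosine kinases, slits are secreted ligands of ROBO receptors, and netrins act through DCC, neogenin and UNC5 receptors. In mesenchymal and endothelial cells, these families are known for effects on adhesion, motility and vessel sprouting.

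RNA came from mesenchymal stromal/stem cells (MSCs) grown from the abdominal fat of 3 female domestic pigs aged 3 months, and from the extracellular vesicles (EVs) that the same cultures released. The cells were at passage 3 and had been kept in medium with platelet lysate, the labels name no other treatment, and EVs were pelleted from the supernatant by ultracentrifugation. There were 3 MSC and 3 EV mRNA libraries. Replicates 1, 2 and 3 were taken as the pigs from the matching numbers in the library titles, so each EV library was paired with the MSC library of its number. EVs are a mixture of exosomes and microvesicles, and a bulk library cannot tell a smaller share of vesicles or cells with an mRNA from less of it in each.

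The MSC libraries held 11332330 to 12276855 counted reads and the EV libraries 10429085 to 12151384, so a count of 0, which allows up to 3 reads, corresponded to at most 0.288 CPM (counts scaled to library size) in any library. These limits cover counting error only. Mesenchymal markers NT5E, CD44, PDGFRA and PDGFRB were abundant, and the summed level of the mesenchymal list, of which 5 of 7 genes had reads, lay between 1402 and 2464 CPM in MSCs and between 1824 and 2398 CPM in EVs. THY1 was listed at 0 and ENG was low. Among other cell types, the smooth muscle and pericyte list (4 of 5 genes with reads, RGS5 at 0) summed to 29.4 to 39.2 CPM in MSCs and 6.91 to 18.7 CPM in EVs, with ACTA2 at a log2 fold change of -4.10 (adjusted p = 0.206, and 0.0116 with the pig as a block) and NOTCH3 at 2.21 (adjusted p = 0.210). The endothelial list (5 of 7 with reads, VWF at 0) summed to 21.8 to 35.3 CPM in MSCs and 7.49 to 27.2 CPM in EVs, with PECAM1 at -1.71 and ERG at -0.16 (SE 0.51), of which EV replicate 3, at 22.9 CPM, lay above every MSC library. The leukocyte list (5 of 7 with reads, AIF1 and LYZ at 0, CD14 the main gene) gave 48.7 to 51.2 CPM in MSCs and 45.2 to 63.9 CPM in EVs, and the neural list (6 of 7 with reads, nearly all of them TUBB3) 28.5 to 58.5 and 51.6 to 79.8 CPM. Platelet genes (2 of 6 with reads, PPBP and ITGA2B at 0) reached at most 3.25 CPM, adipocyte genes (3 of 5 with reads, PLIN1 at 0) at most 0.707 CPM and mesothelial genes (1 of 4 with reads, CALB2 at 0) at most 0.202 CPM. ACTA2 and PECAM1 were thus lower in EVs by the unadjusted thresholds given below while NOTCH3 was higher, and the summed endothelial ranges overlapped. The entries of ACTA2, PECAM1 and ERG share at least 0.9 of their span with other entries, so their levels are uncertain. The part of these other cell type markers in the differences below was not tested.

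Of the 60 genes, 54 had at least 1 read and 41 had enough reads to be tested. Per gene length, in RPKM as deposited (reads scaled to the length of the gene model and to the mapped reads), 6 genes averaged over 10 RPKM in MSCs. The highest was SEMA3C, a secreted semaphorin of vascular and cardiac development, at 22.5 ± 12.2 RPKM (SD, n = 3), followed by EPHA2 at 22.2 ± 3.34, SEMA3F at 18.7 ± 8.90, NRP1 at 15.7 ± 5.48, SLIT2 at 13.2 ± 2.59 and PLXNA1 at 13.1 ± 3.22 RPKM. Each of these means differed from the next by less than the larger of their SDs. In EVs the order was different at the top: NRP1 led with 28.7 ± 6.09 RPKM, followed by SEMA3F at 13.4 ± 6.98, ROBO1 at 13.0 ± 7.45, PLXNA1 at 11.2 ± 0.534, SEMA3C at 10.8 ± 5.96 and SEMA3A at 9.35 ± 2.47 RPKM, while EPHA2 stood at 8.96 ± 1.70 and SLIT2 at 5.47 ± 1.58 RPKM. NRP1, the shared receptor of class 3 semaphorins and a co-receptor of VEGF, was above every other guidance gene in each EV library. The means from SEMA3F to EPHA2 that followed it each differed from the next by less than the larger SD. RPKM rests on the length of the deposited gene model, and several of these are short for the gene, such as the 1533 bases of PLXNB1.

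**Figure D1:**
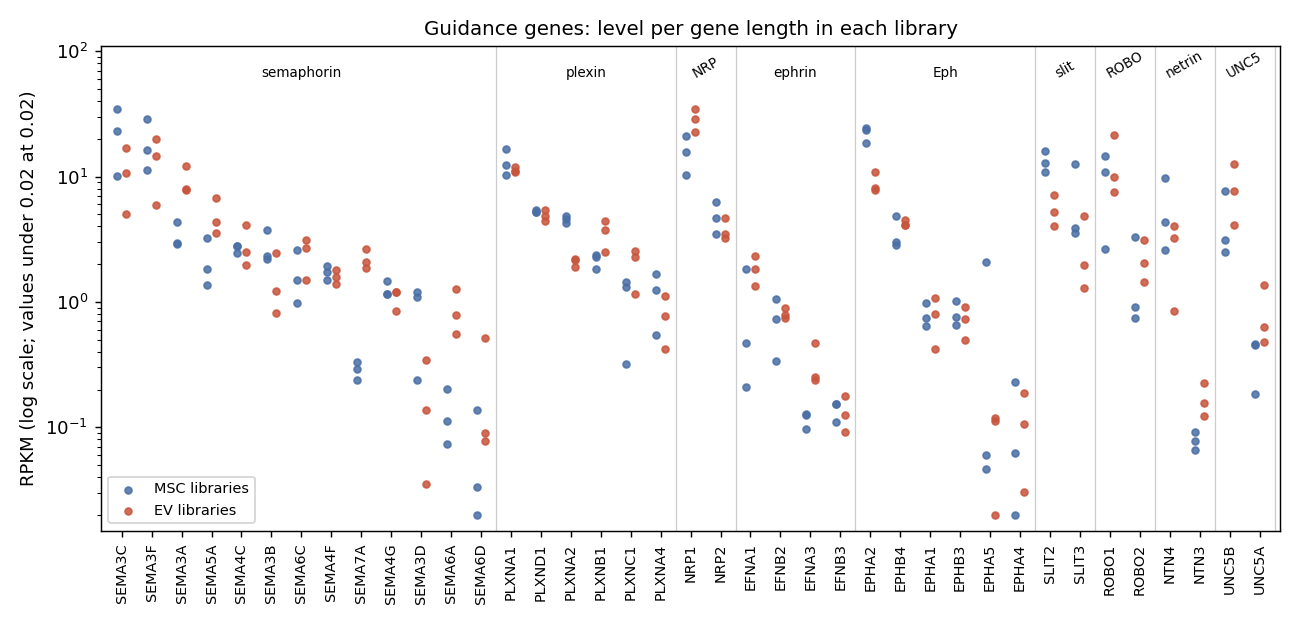
Level of the guidance genes that averaged at least 0.1 RPKM over the 6 libraries, grouped by family, with RPKM on a log axis (values under 0.02 drawn at 0.02) and 1 point for each MSC (blue) and EV (red) library. SEMA7A and SEMA6A show EV points clear of the MSC points above them, and EPHA2, PLXNA2 and SLIT2 show them clear below.

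Summed over each family, the levels of EVs and MSCs differed in both directions. Eph receptors together had 28.3 ± 2.85 RPKM in MSCs and 15.0 ± 2.22 in EVs (SD, n = 3 each), and slits had 19.8 ± 3.29 and 8.17 ± 2.05 RPKM. Both sums were lower in each EV library than in any MSC library. The ephrin sum, small in both, was higher in each EV library than in any MSC library, at 1.79 ± 0.554 RPKM in MSCs and 3.09 ± 0.549 in EVs. The margin was small, from 2.43 RPKM in MSC replicate 2 to 2.50 in EV replicate 1, without TMM normalization. With TMM normalization, 0 of the 3 tested ephrins had all EV values above all MSC values. Neuropilins together had 20.5 ± 6.86 RPKM in MSCs and 32.5 ± 6.27 in EVs, with an overlap of the groups, and the plexin sum was 27.3 ± 4.06 and 24.5 ± 0.682 RPKM. EPHA2 and NRP1 made up most of the sums of their families, and no test was made of any sum.

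**Figure D2:**
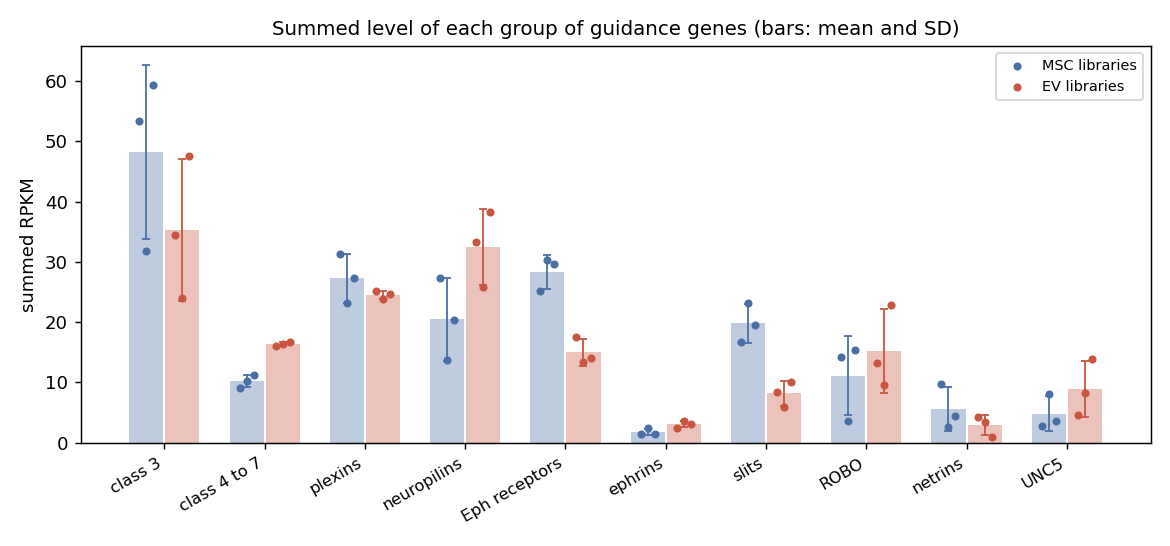
RPKM summed over the genes of each family in MSC (blue) and EV (red) libraries, with bars for the mean, whiskers for the SD of 3 libraries and 1 point per library. The sum of class 4 to 7 semaphorins includes SEMA7A, which was singled out for its difference, so no separation of the groups is read from it. Eph receptors and slits were lower in every EV library. Ephrins, at most 2.43 RPKM in MSC libraries, were higher in every EV library by a small margin, in RPKM without TMM normalization.

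To ask which guidance mRNAs differed between EVs and their parent cells, all 12392 entries with enough reads were fitted together by edgeR (TMM normalization, quasi-likelihood test), and the guidance genes were read from that table. By the thresholds of the study, a fold change over 2 with an unadjusted p-value under 0.05, 3 of the 40 genes other than SEMA7A were higher in EVs (SEMA6A, SEMA3A and SEMA5A) and 4 were lower (SEMA3D, EPHA2, SLIT2 and PLXNA2). These were 7.5% and 10%, beside 5.55% and 3.57% of all entries tested. After Benjamini-Hochberg adjustment over all entries, 0 of the 40 passed (lowest adjusted p = 0.206), as did 0% of all entries. At any fold change, 9 of the 40 had an unadjusted p-value under 0.05, or 22.5%, beside 16% of all entries. The median log2 fold change (log2FC, EVs over MSCs) of the 40 genes was -0.12, against -0.02 for all entries, and 18 were above 0, or 45%, beside 49.1% of all entries.

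Since EVs and MSCs come in pairs from the same animal, the fit was repeated with the pig as a block. It put SEMA6A (adjusted p = 0.0195, edgeR) and SEMA3D (adjusted p = 0.0408) past the adjusted threshold, 1 gene of 40 or 2.5% in each direction, beside 0.492% of all entries higher and 0.605% lower. By the unadjusted thresholds the blocked fit gave 7 of the 40 higher, or 17.5%, adding SEMA6D, PLXNC1, EFNA1 and UNC5A, and 6 lower, or 15%, adding SEMA3C and NTN4. Of all entries, 8.01% were higher and 5.17% lower by the same criterion. DESeq2, without the block, put SEMA6A and SEMA3A (5%) past the adjusted threshold upward and EPHA2, SLIT2 and PLXNA2 (7.5%) downward, beside 2.04% of all entries higher and 1.5% lower. The groups were separate in 9 of the 40 genes. In 5 of them, or 12.5%, all EV values exceeded all MSC values, beside 14.3% of all entries, and in 4, or 10%, all EV values were below, beside 13.6%. These shares of genes with separate groups are near those of the whole table.

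**Figure D3:**
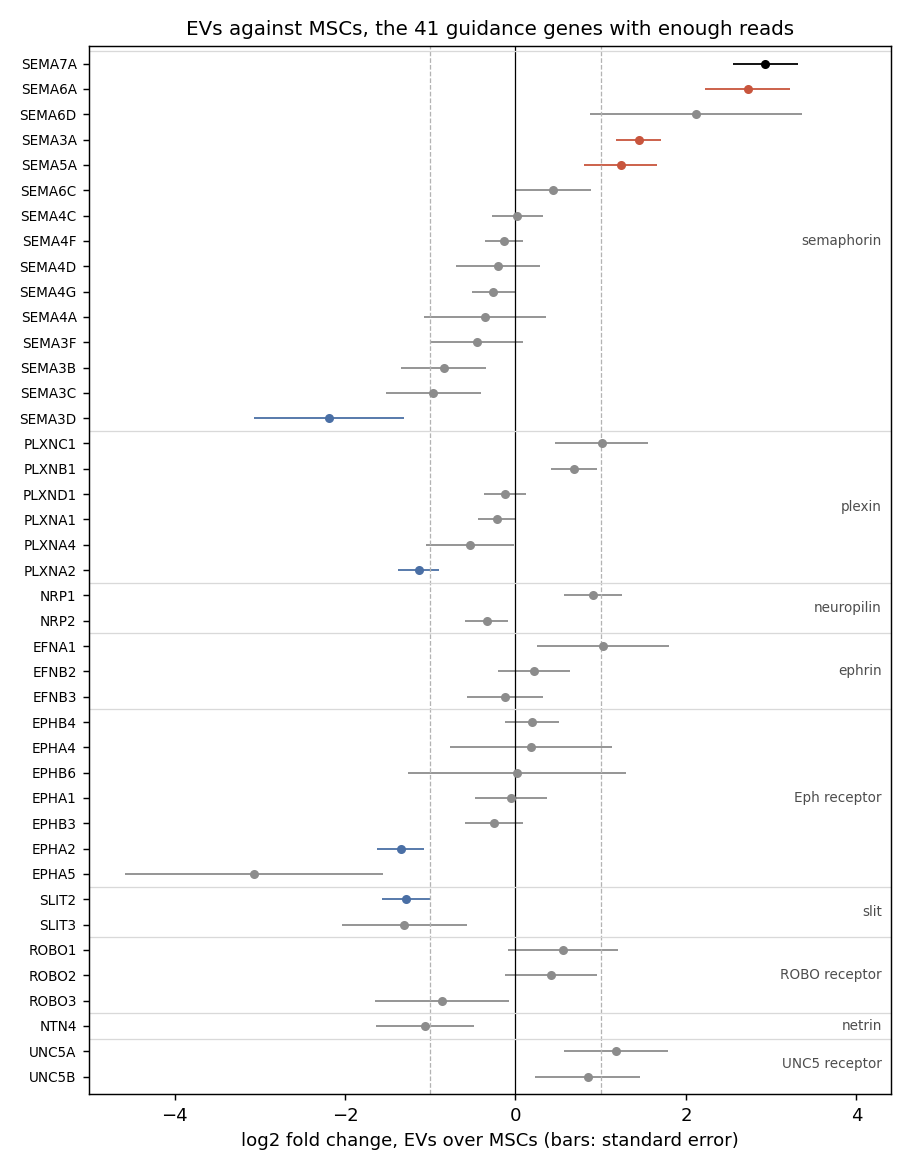
Log2FC of EVs over MSCs for the 41 guidance genes with enough reads, with the standard error (SE) as a bar and dashed lines at a 2-fold change. Red and blue mark the 3 higher and 4 lower genes past the fold change and unadjusted thresholds, from SEMA6A at 2.73 to SEMA3D at -2.19, and black marks SEMA7A at 2.93, which is described without a test. EPHA5, further down at -3.07, has a long bar and is not among them.

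The largest difference past the unadjusted thresholds in each direction was that of a semaphorin, SEMA6A upward and SEMA3D downward. SEMA7A (ENSSSCG00000023165, scaffold GL892482-1 from 46903 to 56335, build susScr3), the lipid-anchored semaphorin, was read 19, 23 and 26 times in the cells of pigs 1, 2 and 3 and 154, 150 and 200 times in their vesicles. The lowest EV count was several times the highest MSC count, and the groups were far apart. Its level was 1.96 ± 0.422 TMM-normalized CPM in MSCs and 15.0 ± 4.58 CPM in EVs (SD, n = 3 each), a log2FC of 2.93 with an SE of 0.38, or 7.62-fold, and it was between 2.65 and 3.09 when any 1 library was left out. SEMA7A was singled out for this difference, so these values describe it and are no evidence for it. SEMA6A (ENSSSCG00000014224, chromosome 2 from 125465825 to 125529074), a transmembrane semaphorin that binds class A plexins, was read 20, 30 and 54 times in the cells and 142, 346 and 204 times in the vesicles. Its EV libraries were likewise all above the MSC libraries, with 3.00 ± 1.52 CPM in MSCs and 19.9 ± 7.54 CPM in EVs (SD, n = 3 each). The log2FC was 2.73 (SE 0.50, adjusted p = 0.206 without the block). Per length the level was 0.128 ± 0.0655 RPKM in MSCs and 0.871 ± 0.360 RPKM in EVs, so even in EVs SEMA6A was a minor semaphorin, below SEMA7A at 2.21 ± 0.404 RPKM.

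SEMA3A (ENSSSCG00000015398, chromosome 9 from 106573372 to 106597357), the secreted ligand of NRP1 known for axon repulsion, had 309, 204 and 206 reads in MSC and 520, 869 and 537 in EV libraries. All EV values were above all MSC values, at 9.35 ± 2.47 RPKM against 3.39 ± 0.814 RPKM (SD, n = 3 each). The log2FC was 1.45 (SE 0.27, adjusted p = 0.206, and 0.0620 with the pig as a block). SEMA5A (ENSSSCG00000017095, chromosome 16 from 78913410 to 79294356), a transmembrane semaphorin with thrombospondin repeats, was read 270, 197 and 468 times in the cells and 489, 644 and 943 times in the vesicles. Its groups were separate by a small margin after normalization, since MSC replicate 3 reached 39.6 CPM and EV replicate 1 was at 41.2 CPM. The log2FC of 1.23 (SE 0.42, adjusted p = 0.264) missed the unadjusted threshold without MSC replicate 1 (1.09), without MSC replicate 2 (1.04) or without EV replicate 3 (0.79).

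The other class 3 semaphorins with enough reads had lower means in EVs, and SEMA3D passed the unadjusted thresholds. SEMA3D (ENSSSCG00000015396, chromosome 9 from 105474523 to 105523996), a secreted semaphorin, was read 189, 40 and 203 times in the cells and 22, 6 and 55 times in the vesicles. The value was lower in the EVs of each pig, while EV replicate 3 was above MSC replicate 2, so the groups overlapped. The log2FC was -2.19 (SE 0.88, adjusted p = 0.291 without the block), and with the block it was -2.46 (SE 0.46). Leaving out a library took the unblocked call away for MSC replicate 1 (-2.01), MSC replicate 3 (-1.83), EV replicate 1 (-2.0) and EV replicate 2 (-1.65), and without EV replicate 3 it was -3.35.

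SEMA3C (ENSSSCG00000023784, chromosome 9 from 109778807 to 109802600) was read 5078, 1467 and 3325 times in the cells and 1457, 735 and 2352 times in the vesicles. It was lower in the EVs of all 3 pigs, with overlapping groups and a log2FC of -0.96 (SE 0.56, adjusted p = 0.398). SEMA3F (chromosome 13 from 35820305 to 35849844), a secreted ligand of NRP2, was read 1843, 2616 and 4589 times in the cells and 2207, 971 and 3046 times in the vesicles, with a log2FC of -0.46 (SE 0.55, adjusted p = 0.670), and it was higher in the EVs of pig 1. SEMA3B, its neighbour on chromosome 13, had a log2FC of -0.84 (SE 0.50, adjusted p = 0.408). SEMA3C and SEMA3F together made up 73.1%, 62.6% and 73.0% of the summed semaphorin RPKM in the cells of pigs 1, 2 and 3, and 49.9%, 27.1% and 57.1% in their vesicles. Each of these shares was lower in EVs than in any MSC library.

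The share of the 11 membrane-bound semaphorins of classes 4 to 7 was 14.6%, 24.4% and 15.8% in MSCs and 31.8%, 40.6% and 26.1% in EVs. SEMA7A, singled out for its difference, is among the 11. Shares without it were not computed, so no separation of the groups is read from these values. The sum of the 11 genes, SEMA7A included, was 10.2 ± 1.01 RPKM in MSCs and 16.4 ± 0.352 RPKM in EVs (SD, n = 3 each). That of the 7 secreted class 3 genes was 48.2 ± 14.5 and 35.3 ± 11.8 RPKM, with overlapping groups. This split was made after the values were seen and was not tested. In class 4, SEMA4C, SEMA4F and SEMA4G had log2FC of 0.02, -0.14 and -0.26 with SEs of 0.30, 0.22 and 0.25, and the sign for SEMA4C changed with the block (-0.01) and when single libraries were left out. SEMA4G was nevertheless below every MSC value in each EV library, from 13.6 to 15.8 CPM in MSCs and from 11.2 to 13.1 CPM in EVs. The SEMA4C entry lies wholly inside another entry, which had 17 reads. SEMA6D, the relative of SEMA6A, was read 6, 0 and 24 times in the cells and 13, 16 and 87 times in the vesicles. Most of its reads came from pig 3 in both groups, and its log2FC of 2.12 had a standard error of 1.24 (adjusted p = 0.402), and it was 0.48 once EV replicate 3 was dropped and 3.85 once MSC replicate 3 was. SEMA6C had a log2FC of 0.44 (SE 0.44).

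**Figure D4:**
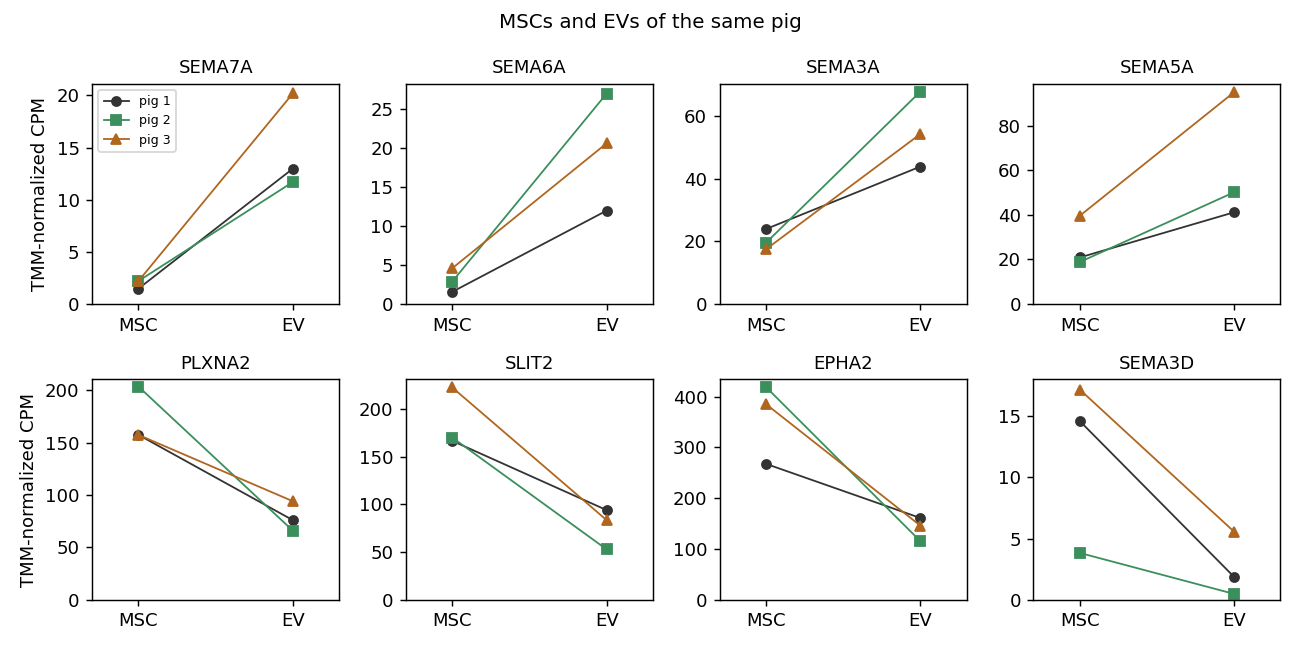
TMM-normalized CPM of SEMA7A and of the 7 guidance genes past the fold change and unadjusted thresholds, with lines that join the MSC and EV library of the same pig. All lines of the upper 4 genes rise and all lines of the lower 4 fall, and for SEMA3D the MSC value of pig 2 lies below the EV value of pig 3.

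Among the receptors of semaphorins, PLXNA2 (ENSSSCG00000026412, chromosome 9 from 148127165 to 148333069), a receptor of SEMA6A and co-receptor of class 3 semaphorins, was read 2034, 2127 and 1857 times in the cells and 900, 844 and 930 times in the vesicles. The reads of each group lay within a narrow range and the groups were far apart. Its level was 173 ± 26.6 CPM in MSCs and 78.5 ± 14.2 CPM in EVs (SD, n = 3 each), and the log2FC was -1.14 (SE 0.24, adjusted p = 0.212), and the call held whichever library was left out. The most abundant plexin per length, PLXNA1, was read 1823, 1108 and 1341 times in the cells and 1122, 1298 and 1121 times in the vesicles. Its groups overlapped, with a log2FC of -0.22 (SE 0.22). PLXND1, a receptor of SEMA3E known from vessel patterning, varied little, with 1663, 1697 and 1627 reads in the cells, 1438, 1400 and 1624 in the vesicles and a log2FC of -0.12 (SE 0.25). For PLXNA4 the log2FC was -0.53 (SE 0.52, adjusted p = 0.597).

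PLXNC1 (chromosome 5 from 93325752 to 93459904), the plexin that binds SEMA7A, was read 418, 100 and 449 times in the cells and 666, 365 and 757 times in the vesicles. It was higher in the EVs of all 3 pigs, but the groups overlapped with pig 2 low in both. The log2FC was 1.01 (SE 0.55, adjusted p = 0.377), and with the pig as a block it was 1.12 (SE 0.30, adjusted p = 0.0975). It was under the fold threshold with the length trend removed (0.74), and with the block and the length trend removed (0.78). The other known SEMA7A receptor, integrin beta-1 (ITGB1), had 10 reads in all, on an entry that a second one of the same symbol, at 0 reads, covers almost wholly, and could not be tested. PLXNB1, a receptor of SEMA4D, was read 161, 121 and 153 times in the cells and 279, 255 and 159 times in the vesicles. After normalization its EV values were all above the MSC values, with a log2FC of 0.69 (SE 0.27, adjusted p = 0.286). Its entry shares its span with entries at 0 reads. SEMA4D itself had 10 to 27 reads a library.

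NRP1 (ENSSSCG00000011102, chromosome 10 from 61651758 to 61800688) was read 7107, 3370 and 5160 times in the cells and 8945, 7590 and 11015 times in the vesicles, the most of any guidance gene in total and in each EV library. All EV libraries were above all MSC libraries, and the gene was higher in the EVs of each pig. The log2FC of 0.91 (SE 0.34, adjusted p = 0.278) was under the fold threshold, which it passed without MSC replicate 1 (1.11) or EV replicate 2 (1.12). The value was 0.63 without EV replicate 3, 0.56 with the length trend removed, and 0.53 with the block and the length trend removed. NRP2, which prefers SEMA3F, was read 910, 499 and 672 times in the cells and 630, 471 and 481 times in the vesicles. It was slightly lower in the EVs of all 3 pigs, with overlapping groups and a log2FC of -0.34 (SE 0.26, adjusted p = 0.498).

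EPHA2 (ENSSSCG00000003471, chromosome 6 from 69567127 to 69595069), a receptor tyrosine kinase bound by ephrin-A1, carried most of the Eph receptor reads, with 3462, 4383 and 4551 in MSCs and 1910, 1477 and 1444 in EVs. Every EV library was below every MSC library, at 141 ± 23.3 CPM in EVs against 357 ± 79.5 CPM in MSCs (SD, n = 3 each). The log2FC was -1.34 (SE 0.28, adjusted p = 0.206, and 0.0829 with the pig as a block), from -1.52 to -1.21 when 1 library was left out. EPHB4, the receptor of ephrin-B2 known from arteries and veins, was read 843, 1432 and 885 times in the cells and 1249, 1213 and 1151 times in the vesicles. Its groups overlapped, and its log2FC of 0.19 (SE 0.32) changed sign to -0.23 when the trend with gene length was removed. EPHA1 and EPHB3 had log2FC of -0.05 (SE 0.42) and -0.25 (SE 0.34), with 56 to 189 reads in each library. EPHA5 was unlike the rest, with 319 reads in MSC replicate 1, 7 and 9 in the other MSC libraries and 16, 1 and 17 in EVs. Its fold change rested on MSC replicate 1: the log2 value was -3.07 (SE 1.52, adjusted p = 0.348), and 0.52 without that library.

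Among the ligands of Eph receptors, EFNA1 (ENSSSCG00000006530, chromosome 4 from 103449082 to 103455256), encoding ephrin-A1, was read 15, 128 and 33 times in the cells and 89, 166 and 123 times in the vesicles. It was higher in the EVs of all 3 pigs, by little in pig 2, where the MSC value was already high. The log2FC was 1.03 (SE 0.77, adjusted p = 0.497), 1.59 with the block (adjusted p = 0.166), and 2.47 without MSC replicate 2. It fell to 0.55 without MSC replicate 1 and to 0.72 without MSC replicate 3. EFNB2, encoding the EPHB4 ligand ephrin-B2, was read 79, 25 and 54 times in the cells and 52, 67 and 56 times in the vesicles, with a log2FC of 0.22 (SE 0.42). EFNB3 had 11 to 21 reads a library and a log2FC of -0.12 (SE 0.44), and EFNA3 had 3 to 4 reads in MSC and 7 to 14 in EV libraries, under the filter. For EFNA1 and EFNB3 a second entry of the same symbol, at 0 reads, covers part of the span, and for EFNB2 nearly all of it, so a comparison of their levels with other genes is uncertain.

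SLIT2 (ENSSSCG00000008749, chromosome 8 from 15355493 to 15443176), a secreted ligand of ROBO1 and ROBO2, was read 2157, 1781 and 2632 times in the cells and 1116, 677 and 827 times in the vesicles. Each EV value was below each MSC value, at 187 ± 31.4 CPM in MSCs and 76.8 ± 21.4 CPM in EVs (SD, n = 3 each). The log2FC was -1.28 (SE 0.29, adjusted p = 0.212, and 0.0702 with the pig as a block), from -1.45 to -1.06 when 1 library was left out. SLIT3 was read 744, 2369 and 667 times in the cells and 231, 380 and 881 times in the vesicles. Pig 2 stood out in MSCs and pig 3 in EVs, and the gene was higher in the EVs of pig 3 and lower in those of the other two. Its log2FC of -1.30 (SE 0.73, adjusted p = 0.387) was close to that of SLIT2 in size but was -2.21 once EV replicate 3 was dropped and -0.31 once MSC replicate 2 was. SLIT1 had 10 reads in all.

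The receptor ROBO1 (ENSSSCG00000012001, chromosome 13 from 186520074 to 186882856) was read 2321, 558 and 3066 times in the cells and 1977, 1592 and 4311 times in the vesicles. Pig 3 was highest and pig 2 lowest in both groups, and the difference between groups was smaller than that between pigs, with a log2FC of 0.56 (SE 0.65, adjusted p = 0.658) that was -0.18 without EV replicate 3. ROBO2, its neighbour on chromosome 13, was read 540, 145 and 120 times in the cells and 469, 330 and 221 times in the vesicles, with pig 1 highest in both groups and a log2FC of 0.41 (SE 0.54). ROBO3 had 1 to 12 reads a library and a log2FC of -0.86 (SE 0.79).

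Of the netrins, NTN4 (ENSSSCG00000000896, chromosome 5 from 91873151 to 91985573), a netrin found in basement membranes, was read 1396, 369 and 612 times in the cells and 537, 466 and 114 times in the vesicles. It was lower in the EVs of pigs 1 and 3 and about level in pig 2, with a log2FC of -1.07 (SE 0.57, adjusted p = 0.375, and 0.191 with the block). NTN1 was listed at 0 reads in every library, on a 1071-base entry on the plus strand that lies wholly inside one named UNC-6. UNC-6 is the name of the netrin of nematodes and does not match the rule, and which gene this entry is was not settled. It is listed on the minus strand (chromosome 12 from 56822603 to 56993122) and was read 128, 62 and 229 times in the cells and 128, 70 and 377 times in the vesicles. Its level followed the pig more than the group, and the log2FC was 0.62 (SE 0.74), or -0.53 without EV replicate 3. NTN3 had 5 to 7 reads in MSC and 9 to 16 in EV libraries, under the filter, and NTN5 had 11 reads in all.

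UNC5B (ENSSSCG00000010276, chromosome 14 from 80010893 to 80098908), a netrin receptor of endothelial tip cells, was read 741, 2237 and 918 times in the cells and 1129, 2269 and 3515 times in the vesicles. The difference was largest in pig 3 and turned the other way in pig 2, and the log2FC was 0.85 (SE 0.62, adjusted p = 0.487). With the length trend removed it was 0.33. A second UNC5B entry at 0 reads covers nearly all of its span, so its level beside other genes is uncertain too. UNC5A was read 22, 54 and 53 times in the cells and 53, 75 and 153 times in the vesicles. It was higher in the EVs of all 3 pigs with overlapping groups, with a log2FC of 1.18 (SE 0.61, adjusted p = 0.361).

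The remaining genes had counts at or near the limit of detection. At 0 reads in all 6 libraries were EPHA3, NTN1, PLXNA3, PLXNB3, ROBO4 and UNC5D. PLXNA3 and PLXNB3 lie on chromosome X, and all 1170 entries that are listed like them (on X, Y and the mitochondrial genome, without a chr prefix) had 0 reads, so their level could not be read, and EPHA3 is listed by a pair of entries over the same span. The 13 genes with reads that were too low to test had from 2 (UNC5CL) to 73 reads (EPHA8) in all. Of these, NTN5, UNC5C and UNC5CL lie wholly inside entries with 14423, 1792 and 2913 reads, so their own levels are uncertain. EPHA8 had 43 reads in MSC replicate 1 and 29 in EV replicate 2, from different pigs, and at most 1 in any other library. SEMA3E, the ligand of PLXND1, was at 0 in MSCs and had 3, 4 and 0 reads in EVs. EFNB1, EFNA5 and PLXNB2 have no entry under those symbols and were not analysed here.

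Pigs differed little in some of these genes and widely in others. In MSCs the standard deviation between pigs, on a log2 CPM scale after adding 0.5, was from 0.08 for PLXNB1 and 0.09 for ROBO3 to 2.53 for EPHA5. ROBO3 had 8 to 11 reads in the MSC libraries, where the added 0.5 shrinks the spread, so its small value says little about pigs. SEMA7A (0.26), SEMA3A (0.22), SLIT2 (0.23) and PLXNA2 (0.21) varied little between pigs, and SEMA3D (1.11), ROBO1 (1.19) and SLIT3 (1.14) had an SD over 1. In 18 of the 40 genes, or 45%, the pig with the highest MSC level also had the highest EV level, beside 38% of all entries. The difference had the same direction in all 3 pigs in 10 genes that were higher and 9 that were lower, or 25% and 22.5%, beside 22.6% and 24.2% of all entries.

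Genes that work with these receptors were read from the same fit, from a list of 68 co-receptors, adaptors and small GTPase regulators of which 53 had an entry and 40 could be tested. By the unadjusted thresholds 0 were higher and 1 was lower, or 2.5%, beside 5.55% and 3.57% of all entries, and 0 passed the adjusted threshold in edgeR, with the block or in DESeq2. Their median log2FC was 0.05, and 3 had an unadjusted p-value under 0.05 at any fold change, or 7.5%, beside 16% of all entries. In the blocked fit these thresholds gave 2 upward and 2 downward, or 5% each, beside 8.01% and 5.17% of all entries. The lower gene in both fits was RRAS, a small GTPase that plexins inactivate, with 1577, 2310 and 1033 reads in the cells against 860, 588 and 634 in the vesicles. Its groups were separate, with a log2FC of -1.24 (SE 0.38, adjusted p = 0.244), which missed the fold change threshold without MSC replicate 2 (-0.78) and the p threshold without EV replicate 2 (-1.07). A larger entry with 14423 reads covers its whole span. The other genes under 0.05 were NCK2, an adaptor of ephrin-B signalling, at -0.72 (SE 0.24, adjusted p = 0.251), and ARHGEF12, which plexin-B receptors bind, at 0.93 (SE 0.32, adjusted p = 0.260). With the length trend removed, ARHGEF12 was at 0.54. The others past the thresholds with the block were RGMB, a glycolipid-anchored ligand of neogenin, at a blocked log2FC of 1.31 (SE 0.35, adjusted p = 0.0945), ROCK1, a kinase of the actin and myosin skeleton, at 1.33 (SE 0.46, adjusted p = 0.173), and ABLIM3, an actin-binding protein with 1 to 48 reads a library, at -1.89 (SE 0.68, adjusted p = 0.181).

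Of the 6 partner genes with the most RPKM, RRAS was the one past the unadjusted thresholds. CDC42 had 31.1 ± 2.63 RPKM in MSCs and 25.0 ± 2.93 RPKM in EVs (SD, n = 3 each), with a log2FC of -0.33 (SE 0.24). GPC1, a heparan sulfate proteoglycan that binds slits, had 28.2 ± 3.14 and 18.1 ± 3.96 RPKM and a log2FC of -0.65 (SE 0.28, adjusted p = 0.314). Both were lower in every EV library than in any MSC library. FES, a tyrosine kinase, was higher in every EV library by a small margin, from 140 to 158 CPM in MSCs and from 164 to 173 CPM in EVs. Over the 40 partner genes, 5 were separate in each direction, or 12.5%, beside 14.3% of all entries above and 13.6% below. RHOD, FES and RHOA, of which RHOA is an 82-base entry, had log2FC of -0.47, 0.20 and -0.02 with SEs of 0.28, 0.20 and 0.34.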

How the data were processed

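The data used here are the mRNA libraries of MSCs and EVs from 3 pigs (n = 3 each). The authors sequenced TruSeq libraries (the labels name a stranded total RNA kit), aligned the reads with TopHat and counted them with featureCounts, while the submitters' processing notes name HTSeq and build susScr3. Whether strand was used in counting is not given in the sources used here. Raw counts and RPKM were deposited by the authors in a table of 29661 entries, of which 3 were shifted by a column and left out. The counted reads were 25.4% to 28.2% of the library totals that the deposited RPKM imply. Symbols came from the table for 4336 entries and from a name table for 11804 of 25322 Ensembl identifiers. No overlap of entries was resolved again.

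EVs were compared with MSCs on raw counts with edgeR 4.0.16 in R 4.3.3 (TMM, filterByExpr, quasi-likelihood test without a pig term, Benjamini-Hochberg adjustment over all 12392 entries). RPKM was used for levels between genes, and TMM-normalized CPM for levels of one gene. The study compared groups by a fold change over 2 and an unadjusted p-value under 0.05. Alternatives were other scaling factors, no filter, DESeq2 1.42.0, limma 3.58.1 on log2(RPKM + 1) and log2(RPKM + 0.1), the pig as a block, removal of the trend with gene length (loess, span 0.5), removal of entries that share at least 0.9 of their span, and leaving out each library. Only the edgeR fit without a pig term was checked on simulated counts, which were drawn without a pig effect. The alternatives were not checked in this way.

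Genes named are SEMA7A, those past the unadjusted thresholds, those past the adjusted threshold with the block, the 4 members of each family with the most RPKM and the 6 most abundant partner genes. PLXNC1, PLXNA4, SEMA3B, SEMA4C, SEMA4F, SEMA4G, SEMA6C, SEMA6D, EPHA5, UNC-6, NCK2, ARHGEF12, RGMB, ROCK1, ABLIM3, ACTA2, NOTCH3, PECAM1 and ERG, and genes given by read counts alone, were added after their values were seen. The members and lists were chosen with earlier results of these data known. Pairing was read from the matching replicate numbers in the library titles, which name no pig. Deviations from the group means correlated at 0.251, 0.384 and 0.408 between libraries of the same number and at -0.364 to -0.038 between the others. Deviations cancel out within a group, so positive values in the first bring negative values in the second, which are no separate evidence. The small-RNA files were not used here.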

Additional observations from a re-analysis of the deposited data

How the results depend on the processing

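SEMA7A is left out of the counts of guidance genes, and the share of all entries fitted follows each count in brackets. The count of 3 guidance genes higher in EVs by the unadjusted thresholds (5.55%) was 7 with the pig as a replicate block (8.01%), 6 with the block and the length trend removed (7.17%), and 1 with limma on log2(RPKM + 1) (1.88%), and ranged from 2 without EV replicate 3 (4.01%) to 5 without EV replicate 2 (4.07%). The count of 4 lower genes (3.57%) was 6 with the block (5.17%), 8 with the block and the length trend removed (5.53%), and 2 with limma on log2(RPKM + 1) (1.57%), and ranged from 3 without MSC replicate 1 (4.35%) or EV replicate 2 (2.12%) to 7 without EV replicate 3 (4.78%). Past the adjusted threshold were 0 genes without the block (0%), 5 in DESeq2 (3.54%), 2 with the block (1.1%), 4 with the block and the length trend removed (1.84%) and 0 whichever library was left out (0%). Their median log2 fold change stayed between -0.24 and 0.01. For partner genes, 2 were higher (8.01%, and 7.17% with the length trend removed) and 2 lower (5.17% and 5.53%) with the block, 0 were lower without entries that share their span (3.65%), and leaving out 1 library gave 0 to 3 higher, the 3 without MSC replicate 1 (7.57%), and 0 to 2 lower, the 0 without EV replicate 2 (2.12%) and the 2 without EV replicate 1 (4.34%). Of the named genes, some changed sign when 1 library was left out, with log2 fold changes of -0.071 to 0.54 for EFNB2, -0.34 to 0.038 for EFNB3, -0.30 to 0.27 for EPHA1, -0.44 to 0.043 for EPHB3, -0.0069 to 0.59 for EPHB4, -0.31 to 0.0073 for PLXND1, -0.18 to 1.06 for ROBO1, -0.35 to 0.17 for RHOA, -3.62 to 0.52 for EPHA5, -0.27 to 0.16 for SEMA4C, -0.90 to 0.21 for ERG and -0.53 to 1.19 for UNC-6. EPHB4 also reversed with the length trend removed (-0.23, and -0.048 with the block), and SEMA4C with the block (-0.015), the length trend removed (-0.025) or both (-0.049). By leaving out 1 library, EFNA1, NRP1, ROBO2, ROBO3, SEMA3B, SEMA3C, SEMA6D, SLIT3, UNC5B, PLXNC1, EPHA5, ARHGEF12, RGMB, ROCK1 and ABLIM3 came past the unadjusted thresholds, and SEMA3D, SEMA5A and RRAS fell below them. The block changed no call of a named gene other than those in the report. The cause of these changes was not tested. At 3 libraries a group, precision is limited by the spread between pigs, and genes under about 10 reads a library by depth.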
